A study of Mus musculus with 18 samples.

Results

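The Ikaros family is a set of 5 zinc-finger transcription factors, Ikaros (Ikzf1), Helios (Ikzf2), Aiolos (Ikzf3), Eos (Ikzf4) and Pegasus (Ikzf5), and its transcripts were followed here through mouse T-cell differentiation in culture. Members were taken by gene symbol. All 5 of the 5 symbols were found among 43280 genes in the count files, and all 5 were among the 13922 genes that passed a filter on low counts. RNA sequencing had been done on 18 libraries of sorted mouse cells in 4 groups. The CD4+CD8+ group (n = 3), the iRTE group (n = 5) and the Artificial CD8 group (n = 5) were differentiated from a Pmel induced pluripotent stem cell source. The splenic CD8 group (n = 5) was naive CD8+ T cells taken from the spleen of transgenic mice and named pmel in the sample descriptions. Pmel names a T-cell receptor transgene against a melanoma antigen. The CD4+CD8+ and Artificial CD8 cells were made on OP9-DL1, a stromal line that presents a Notch ligand. The iRTE group is taken to be the CD8+ cells from the study's 3D thymic culture only by elimination, since its growth label also names OP9-DL1. That label is shared by all 18 libraries, the splenic ones included. Cells were recovered by sorting on CD45, CD4, CD8 and the T-cell receptor, with cells that carried the gamma-delta receptor, CD11c or NK1.1 gated out. The labels used here give no age for any animal or cell, no number of stem cell lines, no treatment other than none, and no statement that replicates were separate cultures or animals. The p-values therefore measure only the spread between these samples, which may be technical.

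Ikaros family proteins bind DNA through N-terminal zinc fingers and pair with themselves and with each other through C-terminal fingers. They are known for recruiting chromatin complexes, above all NuRD, to lymphoid genes, and loss of Ikaros in thymocytes is known to leave Notch target genes active. Helios is abundant in thymocytes that meet strong self-antigen and in regulatory T cells, Aiolos rises as thymocytes and B cells mature, Eos is a partner of Foxp3 in regulatory T cells, and Pegasus is the most divergent member, with a different DNA preference.

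Promoter sequence was found for 2 of the 5 members, Ikzf1 and Ikzf5, in RefSeq on build GRCm38.p6, and each window covers the 250 bases before a transcript start. They are shown because Ikaros family fingers read a GGGAA core, so that the windows show which starts carry it and which do not. Capitals mark GGGAA or, for the other strand, TTCCC. The first Ikzf1 window lies at chr11:11685675-11685924 (plus strand), the second Ikzf1 window at chr11:11689927-11690176 (plus strand), and the Ikzf5 window at chr7:131410479-131410728 (minus strand).
Ikzf1, first start: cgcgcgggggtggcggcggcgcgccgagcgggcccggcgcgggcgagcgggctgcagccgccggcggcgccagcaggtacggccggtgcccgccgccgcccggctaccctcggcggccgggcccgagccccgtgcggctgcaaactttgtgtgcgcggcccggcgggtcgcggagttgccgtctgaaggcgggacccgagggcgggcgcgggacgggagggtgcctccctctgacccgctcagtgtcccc
Ikzf1, second start: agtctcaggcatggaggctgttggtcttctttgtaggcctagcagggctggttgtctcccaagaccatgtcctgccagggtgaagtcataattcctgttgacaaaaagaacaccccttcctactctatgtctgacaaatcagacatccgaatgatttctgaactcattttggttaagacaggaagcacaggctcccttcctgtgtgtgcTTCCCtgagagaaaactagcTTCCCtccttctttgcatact
Ikzf5: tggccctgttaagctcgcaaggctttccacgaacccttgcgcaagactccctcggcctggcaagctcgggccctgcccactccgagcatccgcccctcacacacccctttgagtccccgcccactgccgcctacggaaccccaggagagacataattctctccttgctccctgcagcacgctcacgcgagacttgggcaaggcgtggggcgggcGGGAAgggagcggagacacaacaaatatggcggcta
The first Ikzf1 window has a GC content of 82.0% and holds no match to these letters. The second has a GC content of 47.6% and holds 2 matches, 41 and 21 bases before the start. The Ikzf5 window has a GC content of 64.0% and holds 1 match, 36 bases before its start. Of 32851 promoter windows of the same length, 18477 (56.2%) hold a match on either strand, so a match is common. No binding data were measured, and the counts do not say which Ikzf1 start was used.

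Values below are CPM, the counts of a gene relative to the total of its library, with totals scaled by trimmed mean of M values (TMM). A change is a fitted log2 difference, with the standard error (SE) of log2 CPM between libraries of the groups compared. A gene was called at an adjusted p under 0.05 in edgeR's quasi-likelihood test, with Benjamini-Hochberg adjustment over the 13922 genes. That test uses a shared estimate of the spread from all 4 groups, so the SE and the p-value measure different spreads. The groups were not equally variable. Over genes with at least 5 CPM in a group, the median SD of log2 CPM was 0.37 in iRTE and 0.24 in CD4+CD8+. It was 0.15 in Artificial CD8 and 0.13 in splenic CD8. A shared spread understates that of iRTE and overstates that of the less variable groups, so calls are not equally strict across comparisons. Each library held 11132768 to 19305751 counts, of which 4566 to 13759 fell on the family, and the 3 counts that a count of 0 allows equal 0.155 to 0.269 CPM. No member was at 0 in any library. In bulk RNA, fewer cells of a type and less RNA per cell cannot be told apart. The 12 T-cell identity markers, Cd3e and Lck among them, summed to 8081 to 8648 CPM in Artificial CD8. That was below every library of CD4+CD8+ (9798 to 11046 CPM), iRTE (10531 to 12344 CPM) and splenic CD8 (11631 to 12201 CPM). Single markers were split. Of the 12, 5 were called higher and 2 lower in iRTE than in Artificial CD8 (20% and 18.7% of all genes). Against splenic CD8, 2 were called higher and 6 lower in the Artificial CD8 group (30.3% and 30.2%). Against CD4+CD8+, 0 were called higher and 3 lower there (6.54% and 8.12%). Mean Cd8b1 was 920 CPM in Artificial CD8 and 2546 CPM in iRTE, and mean Lck was 1900 and 1694 CPM. Cd4 was at 155, 253 and 263 CPM in CD4+CD8+, at 0 in all 5 iRTE libraries, at 1.89 to 9.17 CPM in Artificial CD8 and at 0 to 0.162 CPM in splenic CD8. Replicate libraries of iRTE resembled one another less than those of the other groups (Spearman correlation across genes 0.935 to 0.984 in iRTE, 0.975 to 0.994 elsewhere), and iRTE 4 stood apart with 456 CPM of Cd8a beside 1261 to 1385 CPM in the other iRTE libraries. In the sample descriptions iRTE 1 to 3 are named mature with a letter and the CD4+CD8+ libraries immature with a number, while the names of iRTE 4 and 5 begin with pmel, as those of the splenic CD8 libraries do. No label calls these sets batches, and iRTE 4 and 5 were the least alike pair of iRTE libraries (Spearman correlation 0.935). Because the iRTE names differ in this way, the changes of the members in iRTE are given below also for iRTE 1 to 3 alone and for iRTE 4 and 5 alone.

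Transcripts of the 5 members did not move together. Ikzf3 (Aiolos) was lower in iRTE than in each of the other 3 groups, by 3.25-fold to 4.00-fold. Ikzf2 (Helios) and Ikzf4 (Eos) were higher in both CD8+ groups made in culture than in splenic CD8. Ikzf1 (Ikaros) differed by at most 1.41-fold between any pair of groups, and Ikzf5 (Pegasus) by at most 1.68-fold. The plot of member values by library shows the same levels point by point.

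**Figure D1:**
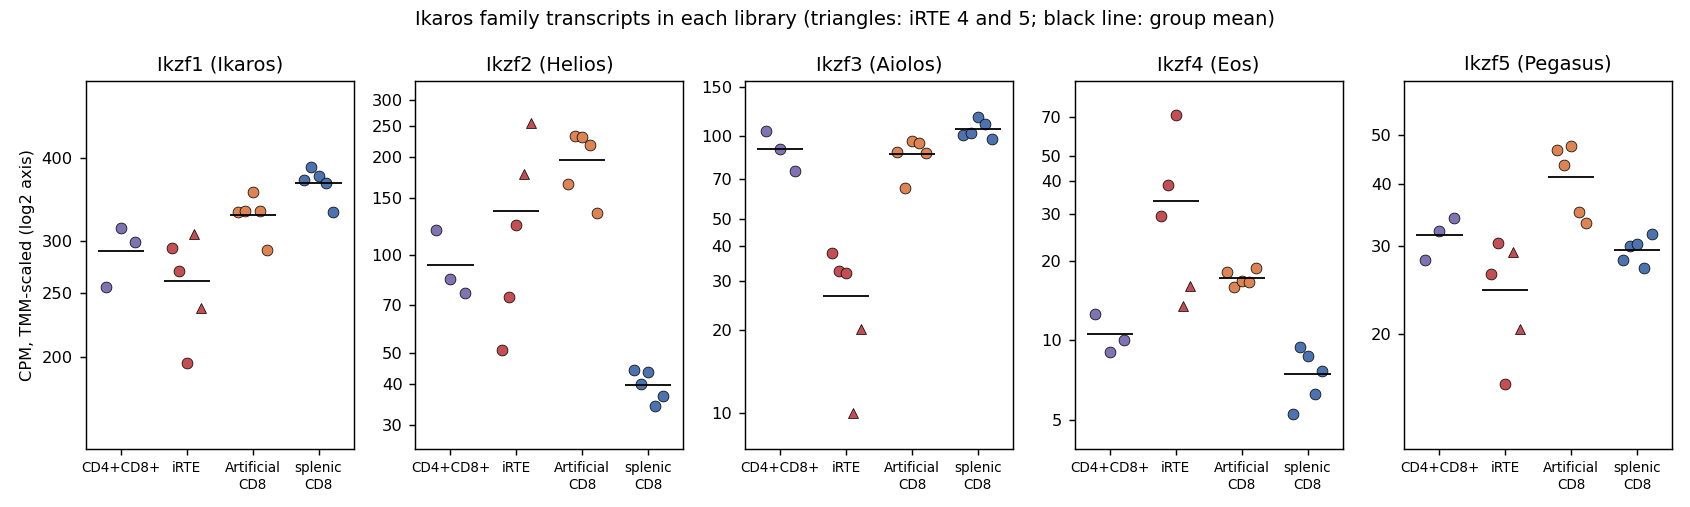
TMM-scaled CPM of the 5 members in each of the 18 libraries, 1 panel per member on its own log2 axis, with points for libraries, triangles for iRTE 4 and 5, and black lines for group means. The iRTE points lie below all others for Ikzf3 (10.03 to 37.9 CPM against 64.8 to 117 CPM) and spread widely for Ikzf2 and Ikzf4.

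Aiolos had the clearest difference between groups. Ikzf3 was at 104, 90.0 and 74.8 CPM in CD4+CD8+ (89.7 ± 14.7, SD, n = 3), and at 37.9, 32.5, 32.04, 10.03 and 20.02 CPM in iRTE 1 to 5 (26.5 ± 11.3, SD, n = 5). It was at 87.2, 64.8, 96.0, 94.4 and 86.4 CPM in Artificial CD8 (85.8 ± 12.5, SD, n = 5), and at 101, 102, 117, 110 and 97.3 CPM in splenic CD8 (106 ± 7.92, SD, n = 5). Every iRTE library lay below every library of the other 3 groups, and iRTE 4 and 5 were the lowest of all. Ikzf3 was lower in iRTE than in splenic CD8 by 4.00-fold (log2 change -2.00 ± 0.35 SE, edgeR adjusted p = 1.51e-06) and lower than in Artificial CD8 by 3.25-fold (-1.70 ± 0.36, adjusted p = 1.88e-05). Against CD4+CD8+ it was lower by 3.40-fold (-1.77 ± 0.37, adjusted p = 8.60e-05). With iRTE 1 to 3 alone these log2 changes were -1.63, -1.33 and -1.39, and with iRTE 4 and 5 alone they were -2.81, -2.52 and -2.57, all called. Among the other 3 groups no Ikzf3 difference was called with all groups in the fit. Artificial CD8 differed from splenic CD8 by -0.30 ± 0.11 on the log2 scale (adjusted p = 0.274). Still, every Artificial CD8 library lay below every splenic CD8 library, and with only the 2 groups in the fit that difference was called (edgeR adjusted p = 0.0104). Artificial CD8 differed from CD4+CD8+ by -0.06 ± 0.17 (adjusted p = 0.911). Splenic CD8 differed from CD4+CD8+ by 0.23 ± 0.15 (adjusted p = 0.467).

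Helios separated the cultured CD8+ cells from those of the spleen. Ikzf2 was at 120, 84.3 and 76.3 CPM in CD4+CD8+ (93.4 ± 23.1, SD, n = 3) and at 165, 232, 232, 219 and 135 CPM in Artificial CD8 (197 ± 44.0, SD, n = 5). It was at 44.3, 40.1, 43.6, 34.1 and 36.8 CPM in splenic CD8 (39.8 ± 4.35, SD, n = 5), below every library of the other groups. The iRTE libraries, in the order 1 to 5, held 50.9, 74.0, 124, 178 and 255 CPM (136 ± 82.3, SD, n = 5), so that they reached from just above the splenic level to above the highest Artificial CD8 library. Ikzf2 was higher than in splenic CD8 by 4.94-fold in Artificial CD8 (log2 change 2.30 ± 0.17, edgeR adjusted p = 4.87e-06) and by 3.43-fold in iRTE (1.78 ± 0.42, adjusted p = 9.11e-05). It was 2.35-fold lower in splenic CD8 than in CD4+CD8+ (-1.23 ± 0.21, adjusted p = 0.00551). For iRTE against splenic CD8 the log2 change was 1.06 with iRTE 1 to 3 alone and 2.45 with iRTE 4 and 5 alone, both called.

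Against the other cultured groups the Helios difference of iRTE depended on the libraries. Ikzf2 differed between iRTE and Artificial CD8 by -0.53 ± 0.45 on the log2 scale (edgeR adjusted p = 0.181). With iRTE 1 to 3 alone that difference was -1.24 (adjusted p = 0.000286), with iRTE 4 and 5 alone it was 0.13 (adjusted p = 0.679), and without iRTE 5 it was -0.88 (adjusted p = 0.0134). Against CD4+CD8+ Ikzf2 differed in iRTE by 0.55 ± 0.46 (adjusted p = 0.292), and this was -0.17 with iRTE 1 to 3 alone (adjusted p = 0.655) and 1.22 with iRTE 4 and 5 alone (adjusted p = 0.00144). Every Artificial CD8 library lay above every CD4+CD8+ library for Ikzf2, and the log2 change of 1.07 ± 0.25 had an adjusted p of 0.0537. Without Artificial CD8 5 it was 1.18 and was called, as it was with only the 2 groups in the fit (1.07, edgeR adjusted p = 0.00217).

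Helios is also a marker of regulatory T cells, so their other markers were read beside it. Foxp3, the factor that defines these cells, was at 14.1 to 24.6 CPM in CD4+CD8+, 0.383 to 3.49 CPM in iRTE, 27.5 to 31.8 CPM in Artificial CD8 and 0.904 to 2.90 CPM in splenic CD8. The 7 markers of regulatory T cells together summed to 657 to 725 CPM in CD4+CD8+, 422 to 882 CPM in iRTE, 942 to 1048 CPM in Artificial CD8 and 118 to 129 CPM in splenic CD8, with none of the 7 at 0 in all libraries of a group. The sum was highest in Artificial CD8 and lowest in splenic CD8, as the Ikzf2 mean was, but single markers were split. Of the 7, 5 were called higher and 2 lower in Artificial CD8 than in splenic CD8 (30.3% and 30.2% of all genes). In iRTE against Artificial CD8, 3 were called higher and 4 lower (20% and 18.7%). Mean Tnfrsf18, 1 of the 7, was 15.2 CPM in Artificial CD8, 59.9 CPM in splenic CD8 and 186 CPM in iRTE. Within iRTE, library 5 had both the highest Ikzf2 (255 CPM) and the lowest sum (422 CPM). In iRTE 4, which held 178 CPM of Ikzf2, the marker Nrp1 was at 270 CPM beside 12.96 to 41.1 CPM in the other iRTE libraries. The part of such cells in the Ikzf2 levels was not tested.

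Eos was the lowest member per length in 3 of the 4 groups and was higher in both CD8+ groups from culture than in splenic CD8. Ikzf4 was at 12.5, 9.05 and 10.04 CPM in CD4+CD8+ (10.54 ± 1.80, SD, n = 3) and at 29.6, 38.5, 71.0, 13.5 and 16.1 CPM in iRTE 1 to 5 (33.7 ± 23.2, SD, n = 5). It was at 18.1, 15.8, 16.7, 16.6 and 18.8 CPM in Artificial CD8 (17.2 ± 1.21, SD, n = 5), and at 5.24, 9.41, 8.72, 6.27 and 7.64 CPM in splenic CD8 (7.46 ± 1.72, SD, n = 5). All iRTE and Artificial CD8 libraries lay above all splenic CD8 and CD4+CD8+ libraries, and iRTE 3 was the highest of the 18. Ikzf4 was higher than in splenic CD8 by 4.52-fold in iRTE (log2 change 2.18 ± 0.46, edgeR adjusted p = 2.73e-05) and by 2.31-fold in Artificial CD8 (1.21 ± 0.16, adjusted p = 0.00429). It was 3.19-fold higher in iRTE than in CD4+CD8+ (1.67 ± 0.45, adjusted p = 0.00513). The difference between Artificial CD8 and CD4+CD8+ was not called (0.71 ± 0.14, adjusted p = 0.247), nor was that between splenic CD8 and CD4+CD8+ (-0.50 ± 0.20, adjusted p = 0.271). With only Artificial CD8 and CD4+CD8+ in the fit, the first of these was called (edgeR adjusted p = 0.00951).

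The Eos values of iRTE fell into the same sets as those of Helios, in the other direction. Ikzf4 in iRTE differed from splenic CD8 by 2.64 on the log2 scale with iRTE 1 to 3 alone and by 0.99 with iRTE 4 and 5 alone, both called by edgeR. Against CD4+CD8+ the values were 2.14 (adjusted p = 6.15e-06) and 0.49 (adjusted p = 0.157). Between iRTE and Artificial CD8 the libraries overlapped, and the log2 change of 0.97 ± 0.43 (1.96-fold, adjusted p = 0.0248) was not stable. It was 1.43 with iRTE 1 to 3 alone (adjusted p = 4.13e-05) and -0.23 with iRTE 4 and 5 alone (adjusted p = 0.468). The call ended without iRTE 3 (0.50, adjusted p = 0.141), without Artificial CD8 2 (0.94, adjusted p = 0.0516), with limma-voom (0.62, adjusted p = 0.125) and with only the 2 groups in the fit (0.95, adjusted p = 0.0679). With only the 2 groups in the fit, the call against CD4+CD8+ ended too (1.67, adjusted p = 0.0719).

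Ikaros was the most abundant member in every group and differed least between groups. Ikzf1 was at 256, 314 and 299 CPM in CD4+CD8+ (290 ± 30.2, SD, n = 3) and at 293, 270, 196, 308 and 238 CPM in iRTE (261 ± 44.7, SD, n = 5). It was at 332, 333, 356, 334 and 291 CPM in Artificial CD8 (329 ± 23.7, SD, n = 5) and at 370, 388, 376, 367 and 331 CPM in splenic CD8 (367 ± 21.2, SD, n = 5). The splenic CD8 libraries lay above all iRTE and CD4+CD8+ libraries, and the iRTE libraries overlapped those of CD4+CD8+ and Artificial CD8. Ikzf1 was lower in iRTE than in splenic CD8 by 1.41-fold (log2 change -0.49 ± 0.12, edgeR adjusted p = 0.000831), a call that held with iRTE 1 to 3 alone (-0.53) and with iRTE 4 and 5 alone (-0.42). It was 1.26-fold lower in iRTE than in Artificial CD8 (-0.33 ± 0.13, adjusted p = 0.0208), with -0.38 for iRTE 1 to 3 alone (adjusted p = 0.00945) and -0.28 for iRTE 4 and 5 alone (adjusted p = 0.0910). The latter call also ended with only the 2 groups in the fit (-0.33, adjusted p = 0.0726).

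For Ikaros the remaining differences were small. Ikzf1 was 1.27-fold higher in splenic CD8 than in CD4+CD8+ (log2 change 0.34 ± 0.10, edgeR adjusted p = 0.0293). That call ended when CD4+CD8+ 1 (0.26), CD4+CD8+ 3 (0.36) or any of splenic CD8 1 to 4 (0.30 to 0.32) was left out. Ikzf1 differed by -0.16 ± 0.06 between Artificial CD8 and splenic CD8 (adjusted p = 0.222). With only the 2 groups in the fit that change was -0.15 and was called (edgeR adjusted p = 0.0328). Ikzf1 differed by 0.18 ± 0.10 between Artificial CD8 and CD4+CD8+ (adjusted p = 0.362), and by -0.15 ± 0.15 between iRTE and CD4+CD8+ (adjusted p = 0.422). That last value was -0.19 with iRTE 1 to 3 alone and -0.084 with iRTE 4 and 5 alone, neither called.

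Pegasus was highest in Artificial CD8, but its counts are uncertain. In the GENCODE vM21 annotation, 4652 of the 5721 exon bases of Ikzf5 overlap Pstk, a kinase gene on the other strand. The strand setting of the counting is not given in the sources used here. Reads of the shared bases may therefore have been counted for the wrong gene or left out. Ikzf5 was at 28.2, 32.2 and 34.2 CPM in CD4+CD8+ (31.5 ± 3.05, SD, n = 3) and at 26.4, 30.5, 15.9, 29.3 and 20.5 CPM in iRTE (24.5 ± 6.15, SD, n = 5). It was at 46.8, 43.5, 47.6, 35.2 and 33.4 CPM in Artificial CD8 (41.3 ± 6.60, SD, n = 5) and at 28.1, 30.01, 30.3, 27.1 and 31.7 CPM in splenic CD8 (29.5 ± 1.80, SD, n = 5). All Artificial CD8 libraries lay above all iRTE and splenic CD8 libraries. Ikzf5 was lower in iRTE than in Artificial CD8 by 1.68-fold (log2 change -0.75 ± 0.20, edgeR adjusted p = 0.00110), with -0.77 for iRTE 1 to 3 alone and -0.73 for iRTE 4 and 5 alone, both called. It was 1.40-fold higher in Artificial CD8 than in splenic CD8 (0.49 ± 0.11, adjusted p = 0.0130). Pstk went the other way between iRTE and Artificial CD8, at 46.6 ± 13.6 CPM (SD, n = 5) against 27.9 ± 1.20 CPM (SD, n = 5), a log2 change of 0.74 (adjusted p = 0.00285). Between Artificial CD8 and splenic CD8 it went the same way as Ikzf5, at 27.9 ± 1.20 CPM against 17.4 ± 2.64 CPM (log2 change 0.68, edgeR adjusted p = 0.00316), and what reads of Pstk add to that Ikzf5 call was not tested. The log2 change of Ikzf5 was -0.26 ± 0.18 for iRTE against splenic CD8 (adjusted p = 0.168), -0.36 ± 0.19 for iRTE against CD4+CD8+ (adjusted p = 0.169), 0.39 ± 0.13 for Artificial CD8 against CD4+CD8+ (adjusted p = 0.178), and -0.10 ± 0.09 for splenic CD8 against CD4+CD8+ (adjusted p = 0.661). With iRTE 1 to 3 alone the Ikzf5 changes of iRTE were -0.28 from splenic CD8 and -0.38 from CD4+CD8+, and with iRTE 4 and 5 alone they were -0.23 and -0.34, none of them called. With scaling by total counts only, the iRTE difference from splenic CD8 was -0.44 and was called (adjusted p = 0.0281).

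Calls were common over all genes, and the members' counts are read against that background. For iRTE against Artificial CD8, 4 of the 5 members were called beside 38.7% of all genes, 1 higher (20% of all genes) and 3 lower (18.7%). For iRTE against splenic CD8, 4 were called beside 58.2%, 2 higher (29.2%) and 2 lower (29%). For Artificial CD8 against splenic CD8, 3 were called beside 60.6%, with 3 higher (30.3%) and 0 lower (30.2%). For iRTE against CD4+CD8+, 2 were called beside 24.2%, 1 higher (11.8%) and 1 lower (12.3%). For splenic CD8 against CD4+CD8+, 2 were called beside 56.2%, 1 higher (27.4%) and 1 lower (28.9%). For Artificial CD8 against CD4+CD8+ edgeR called 0 of the 5, beside 14.7% of all genes (6.54% higher, 8.12% lower). There DESeq2 and limma-voom each called 1, and at an unadjusted p under 0.05 edgeR had 1, which was Ikzf2 in each case. The libraries of the groups did not overlap for 2 of 5 members in iRTE against Artificial CD8 (23.6% of all genes), 4 in iRTE against splenic CD8 (41.2%) and 4 in Artificial CD8 against splenic CD8 (61.1%). Against CD4+CD8+ they did not overlap for 2 members each in iRTE (19.5%), splenic CD8 (63.4%) and Artificial CD8 (29%). With 5 genes and such shares, the counts are not read as particular to the family. The comparisons share groups, so they are not independent of each other.

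**Figure D2:**
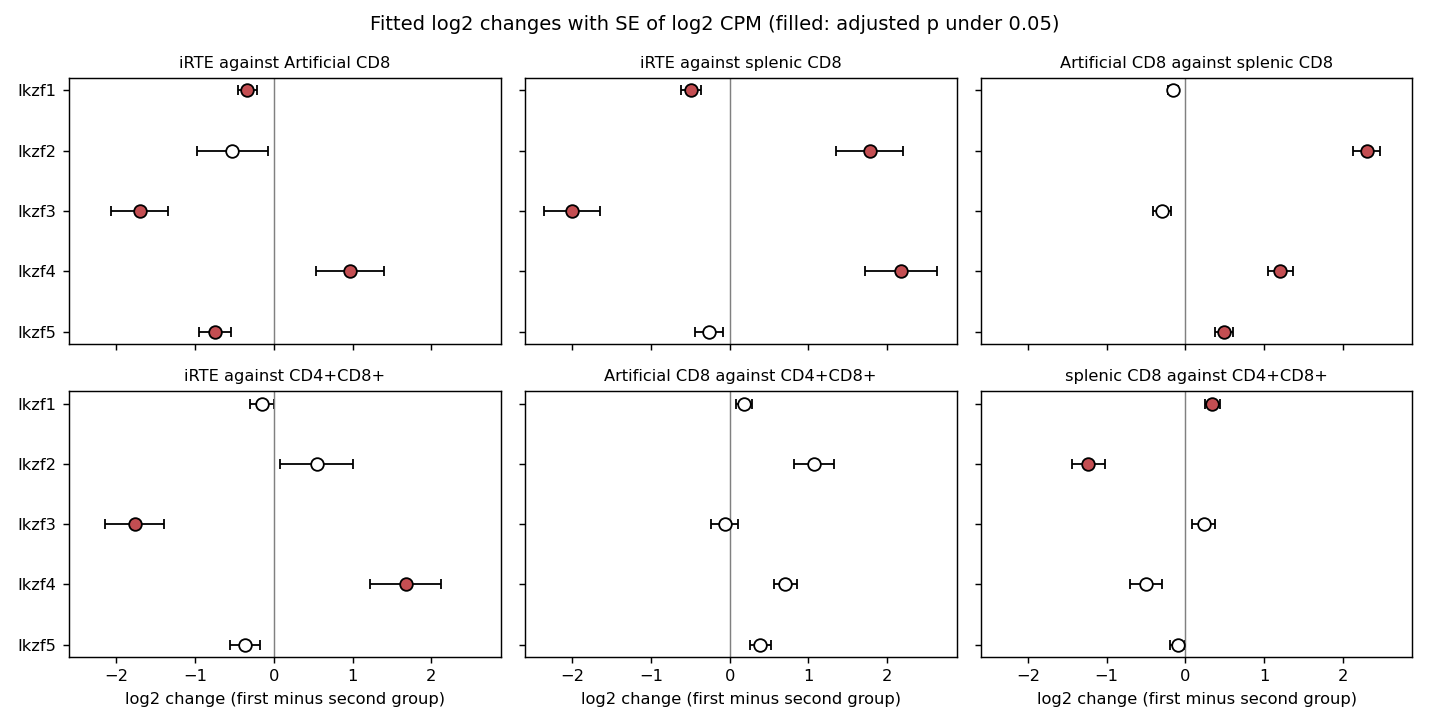
Fitted log2 change of each member (horizontal axis, first minus second group) in the 6 comparisons, with bars for the SE of log2 CPM between libraries and filled points for an adjusted p under 0.05 in edgeR. Ikzf3 lies at -2.00 to -1.70 in the 3 comparisons of iRTE, and Ikzf4 at 0.97 to 2.18.

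Per length of exon, the order of the members differed between groups. CPM were divided by the union exon length in GENCODE vM21 on GRCm38 (5777 bases for Ikzf1, 11613 for Ikzf2, 8754 for Ikzf3, 5995 for Ikzf4 and 5721 for Ikzf5), which may not be the annotation that was counted. In splenic CD8 Ikaros stood at 63.5 ± 3.67 CPM per kb (SD, n = 5), followed by Aiolos at 12.1 ± 0.905, Pegasus at 5.15 ± 0.315, Helios at 3.43 ± 0.375 and Eos at 1.24 ± 0.286. No adjacent pair in that order had overlapping mean ± SD ranges. In CD4+CD8+ the order was Ikaros (50.1 ± 5.22 CPM per kb, SD, n = 3), Aiolos (10.2 ± 1.68), Helios (8.05 ± 1.99), Pegasus (5.51 ± 0.534) and Eos (1.76 ± 0.300). The mean ± SD ranges of Aiolos and Helios overlapped, though within each CD4+CD8+ library Aiolos was the higher of the pair per length. In Artificial CD8 Helios came before Aiolos, with Ikaros at 56.9 ± 4.10 CPM per kb (SD, n = 5), Helios at 16.9 ± 3.79, Aiolos at 9.80 ± 1.42, Pegasus at 7.22 ± 1.15 and Eos at 2.87 ± 0.202. There the mean ± SD ranges of Aiolos and Pegasus met at the edge, so their order is not clear, and no other adjacent pair overlapped. In each group the place of Pegasus rests on counts that may include reads of Pstk or lack reads of the bases shared with it. In iRTE Aiolos came last, with Ikaros at 45.2 ± 7.73 CPM per kb (SD, n = 5), Helios at 11.7 ± 7.08, Eos at 5.63 ± 3.87, Pegasus at 4.29 ± 1.08 and Aiolos at 3.03 ± 1.29. The last 4 of these overlapped from neighbour to neighbour.

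The balance between members can be read within a library, where scaling plays no part. The ratio of Ikzf2 counts to Ikzf3 counts was 0.937 to 1.15 in CD4+CD8+, 1.56 to 3.58 in Artificial CD8 and 0.309 to 0.439 in splenic CD8. In iRTE 1 to 5 it was 1.34, 2.28, 3.87, 17.7 and 12.7, the last a pair of values above every other library. Splenic CD8 was the only group with more Ikzf3 than Ikzf2 counts in all of its libraries. The ratio of Ikzf3 to Ikzf4 was 7.45 to 9.95 in CD4+CD8+, 4.09 to 5.75 in Artificial CD8, 10.9 to 19.3 in splenic CD8 and 0.451 to 1.28 in iRTE, with no overlap between the 4 groups. The ratio of Ikzf1 to Ikzf5 stayed between 7.09 and 13.5 over all 18 libraries. These ratios are descriptions of counts, not per length, and were not tested.

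**Figure D3:**
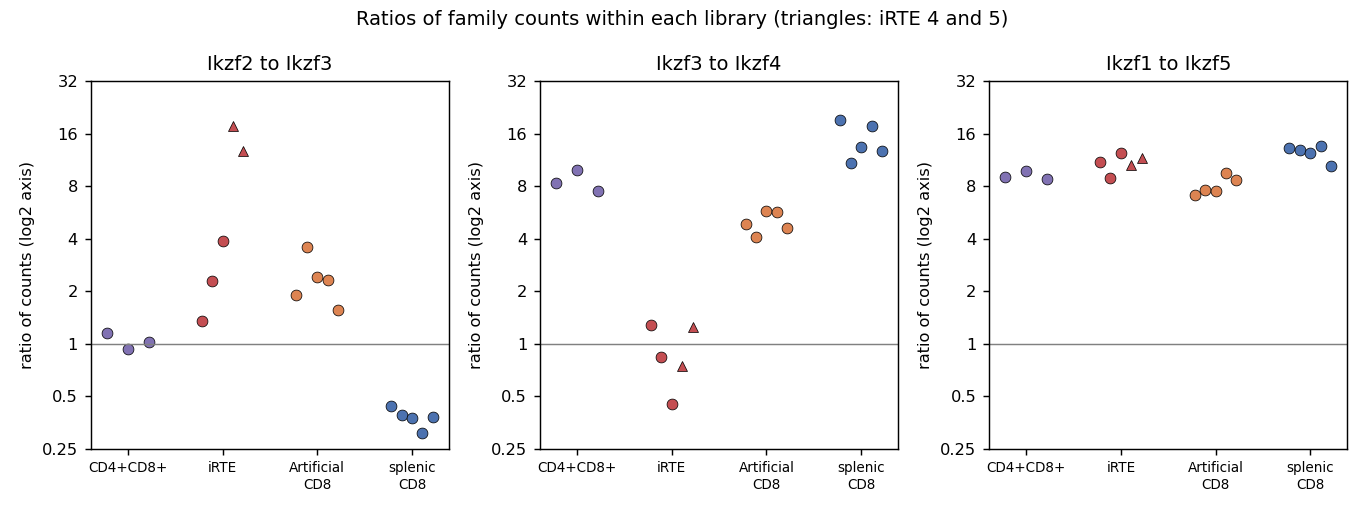
Ratio of the counts of a pair of members within each library on a shared log2 axis, with points for libraries, triangles for iRTE 4 and 5 and a grey line at 1. For Ikzf2 to Ikzf3 the triangles stand at 17.7 and 12.7, and for Ikzf3 to Ikzf4 the iRTE points lie at 0.451 to 1.28, below the other groups.

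Within iRTE, 3 members varied more than most genes. The SD of log2 CPM over the 5 libraries was 0.94 for Ikzf2, 0.78 for Ikzf3 and 0.97 for Ikzf4, beside a median of 0.37 over 9278 genes with at least 5 CPM in that group, and 0.26 for Ikzf1 and 0.39 for Ikzf5. After these values were seen, iRTE 1 to 3 were compared with iRTE 4 and 5, a grouping taken from their names, although iRTE 4 and 5 were less alike across genes (Spearman correlation 0.935) than either was with iRTE 1 or 2 (0.950 to 0.955). Ikzf2 was lower in iRTE 1 to 3 (83.0 CPM against 216 CPM, log2 change -1.38 ± 0.45, edgeR adjusted p = 0.00466). Ikzf3 was higher there (34.2 CPM against 15.03 CPM, 1.18 ± 0.50, adjusted p = 0.00278), as was Ikzf4 (46.4 CPM against 14.8 CPM, 1.65 ± 0.39, adjusted p = 0.00225). The libraries of the sets did not overlap for these 3 members, beside 29.4% of all genes, and 3 of 5 were called beside 13.8%, 2 higher (6.48%) and 1 lower (7.31%). Ikzf1 (-0.11, adjusted p = 0.690) and Ikzf5 (-0.04, adjusted p = 0.952) were not called. The comparison was made because the values had been seen, with 3 libraries against 2, and what the difference in names stands for is not stated.

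Genes of the pathway were read from 5 lists. The first holds 20 genes of the complexes that Ikaros proteins recruit, NuRD, Sin3, CtBP and SWI/SNF, and all 20 passed the filter. Of them 3 were higher and 7 lower in iRTE than in Artificial CD8 (median log2 change -0.04, beside 0.01 over all genes), and 8 were higher and 4 lower in iRTE than in splenic CD8 (median 0.17, beside -0.05). Over all genes 20% were higher and 18.7% lower in iRTE than in Artificial CD8, and 29.2% were higher and 29% lower than in splenic CD8, and the counts of each list are to be read against these shares. Chd3, an ATPase of NuRD, showed the largest contrast of those named. It was at 10.6, 12.6, 5.40, 32.1 and 12.8 CPM in iRTE and at 162 to 186 CPM in splenic CD8 (log2 change -3.56 ± 0.41, edgeR adjusted p = 3.00e-08), and at 2.99 to 4.49 CPM in CD4+CD8+ and 4.71 to 7.51 CPM in Artificial CD8. The related ATPase Chd4 was at 158 to 194 CPM in iRTE and at 174 to 204 CPM in splenic CD8. Rbbp4, a histone chaperone subunit, was higher in iRTE than in splenic CD8 (522 ± 71.0 CPM against 285 ± 13.9 CPM, SD, n = 5 each, adjusted p = 3.83e-07), as was the scaffold Sin3b (255 ± 38.7 against 139 ± 6.13 CPM, adjusted p = 8.60e-07). The deacetylase Hdac2 (146 ± 38.8 against 272 ± 11.6 CPM, adjusted p = 0.000741) and the SWI/SNF subunit Smarcc1 (162 ± 17.8 against 303 ± 18.3 CPM, adjusted p = 6.62e-06) were lower in iRTE than in Artificial CD8. The count of 7 lower in iRTE than in Artificial CD8 was 4 without iRTE 1, iRTE 2, iRTE 3, Artificial CD8 1 or Artificial CD8 4, 3 without Artificial CD8 2, and 2 with only the 2 groups in the fit, and the count of 3 higher was 5 without iRTE 1.

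The next list holds genes of the cereblon ligase, casein kinase II and protein phosphatase 1, together with Uba2 and Pias3. Whether any of them acts on Ikaros proteins in these untreated cells was not tested. Of the 12 genes listed, all passed the filter, with 4 higher and 3 lower in iRTE than in Artificial CD8 (median -0.11, beside 0.01 over all genes) and 7 higher and 2 lower than in splenic CD8 (median 0.55, beside -0.05), where all genes called made up 38.7% and 58.2%. Against Artificial CD8, Pias3 was among the 4 higher (edgeR adjusted p = 1.73e-05) and Uba2 among the 3 lower (edgeR adjusted p = 0.0112). The count of 4 higher was 2 with iRTE 4 and 5 alone. Crbn, the substrate receptor itself, was at 144, 152, 80.8, 144 and 106 CPM in iRTE, 72.2 to 91.7 CPM in Artificial CD8 and 146 to 172 CPM in splenic CD8. Its iRTE level lay between the other CD8+ groups, with a log2 change of 0.61 ± 0.18 from Artificial CD8 (edgeR adjusted p = 0.00208) and -0.35 ± 0.18 from splenic CD8 (adjusted p = 0.0408). The ligase adaptor Ddb1 (621 ± 86.5 against 321 ± 10.6 CPM, SD, n = 5 each, adjusted p = 2.06e-07), the phosphatase Ppp1ca (1312 ± 222 against 626 ± 60.6 CPM, adjusted p = 4.46e-07) and the kinase subunit Csnk2b (167 ± 52.2 against 71.4 ± 3.56 CPM, adjusted p = 1.23e-05) were higher in iRTE than in splenic CD8. The count of 2 lower than in splenic CD8, Crbn among them, was 0 or 1 when iRTE 1, 2, 3 or 5 or any single splenic CD8 library was left out. The count of 3 lower than in Artificial CD8 was 1 without iRTE 3 and ranged from 0 to 5 over all alternatives. No protein level was measured.

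Genes listed as Notch targets restrained by Ikaros were largely lower in iRTE than in Artificial CD8. The list also holds Gata3, Tcf7 and Lef1, and whether Ikaros restrained any listed gene in these cells was not tested. Of 12 listed genes 11 passed the filter (Hey1 did not), and 9 of the 11 were lower (18.7% of all genes) and 2 higher (20% of all genes), with a median log2 change of -1.33, beside 0.01 over all genes. The count of 2 higher was 1 with iRTE 4 and 5 alone. Notch1, a receptor and itself a target, was at 101, 99.5, 132, 97.1 and 87.4 CPM in iRTE, 456 to 584 CPM in Artificial CD8, 296 to 327 CPM in CD4+CD8+ and 167 to 212 CPM in splenic CD8. Its iRTE libraries lay below all others (log2 change from Artificial CD8 -2.37 ± 0.12, edgeR adjusted p = 4.65e-11). Notch3 was at 2.59 to 13.9 CPM in iRTE and at 75.4 to 104 CPM in Artificial CD8 (-3.53 ± 0.43, adjusted p = 4.48e-07), and Gata3, a T-lineage factor, at 69.5 ± 8.10 against 129 ± 3.23 CPM (SD, n = 5 each, adjusted p = 3.67e-07). Myc went the other way, at 421 ± 226 against 230 ± 5.54 CPM (adjusted p = 0.00324). The growth label names the same Notch ligand line for all groups, so the labels do not show whether exposure to it differed. Against splenic CD8, 7 of the 11 were higher in iRTE and 3 lower (median 2.07, or 2.03 with Ptcra, at 0 in all splenic CD8 libraries, set at 3 counts per library, beside -0.05). Hes1, a direct Notch target, had 9.35 ± 4.09 CPM in iRTE, and splenic CD8 had 0.122 ± 0.0922 CPM (adjusted p = 3.91e-10). Lef1 was lower (278 ± 80.5 against 697 ± 48.7 CPM, adjusted p = 3.93e-07), and Tcf7 was at 1447 ± 198 and 1435 ± 19.9 CPM (adjusted p = 0.915).

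Lymphoid genes bound or set by Ikaros split in both comparisons. Of 18 listed genes 16 passed the filter, with 5 higher and 7 lower in iRTE than in Artificial CD8 (median -0.13, beside 0.01 over all genes), and 7 higher and 4 lower than in splenic CD8 (median 0.17, beside -0.05). Over all genes 38.7% and 58.2% were called in these comparisons. Rag2, a subunit of the V(D)J recombinase, was at 0, 0, 0, 0.747 and 1.21 CPM in iRTE and at 54.3 to 67.9 CPM in Artificial CD8 (edgeR adjusted p = 4.58e-09). Cd8b1, the co-receptor beta chain, was higher in iRTE than in Artificial CD8 (2546 ± 498 against 920 ± 91.3 CPM, SD, n = 5 each, adjusted p = 7.74e-08), and Bcl2l1, a survival gene, was lower (39.3 ± 8.04 against 93.2 ± 7.58 CPM, adjusted p = 4.20e-07). Cd5, a restraint on receptor signalling, was at 3.99 to 13.1 CPM in iRTE, below Artificial CD8 (55.3 to 57.5 CPM), splenic CD8 (90.9 to 105 CPM) and CD4+CD8+ (58.2 to 78.6 CPM). Lck, the proximal receptor kinase, was at 1694 ± 178 CPM in iRTE, 1900 ± 105 CPM in Artificial CD8 (adjusted p = 0.148) and 1895 ± 106 CPM in splenic CD8 (adjusted p = 0.124).

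Genes known to accompany Helios in agonist selection were mixed. Of 19 listed genes 18 passed the filter, with 8 higher and 3 lower in iRTE than in Artificial CD8 (median log2 change 0.47, beside 0.01 over all genes, of which 20% were higher and 18.7% lower). Against splenic CD8, 6 were higher and 5 lower in iRTE (median -0.03, beside -0.05), and the count lower was 10 without iRTE 5 and 10 with iRTE 1 to 3 alone. Between Artificial CD8, the group with the highest mean Ikzf2, and splenic CD8, the group with the lowest, 5 were higher and 11 lower (median -1.21, beside -0.03 over all genes, of which 30.3% were higher and 30.2% lower). Tnfrsf18, which encodes GITR, was at 152, 242, 360, 75.0 and 100 CPM in iRTE and at 12.4 to 19.3 CPM in Artificial CD8 (log2 change 3.61 ± 0.43, edgeR adjusted p = 1.01e-07). Its order over the iRTE libraries differed from that of Ikzf2, with the highest value in iRTE 3 and the lowest in iRTE 4. Itgae, the CD103 integrin (1227 ± 422 against 375 ± 29.4 CPM, SD, n = 5 each, adjusted p = 9.98e-07), and Bcl2l11, which encodes the death factor Bim (213 ± 76.8 against 105 ± 10.8 CPM, adjusted p = 0.000282), were also higher in iRTE than in Artificial CD8. Pdcd1, the PD-1 receptor, was at 1.81 to 7.19 CPM in iRTE, 155 to 180 CPM in Artificial CD8, 68.3 to 79.5 CPM in CD4+CD8+ and 3.80 to 5.69 CPM in splenic CD8 (iRTE against Artificial CD8 -5.56 ± 0.34, adjusted p = 5.42e-11). Nr4a1, a receptor-signal gene, was at 24.998 ± 49.4 against 16.1 ± 2.75 CPM (adjusted p = 0.5682).

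**Figure D4:**
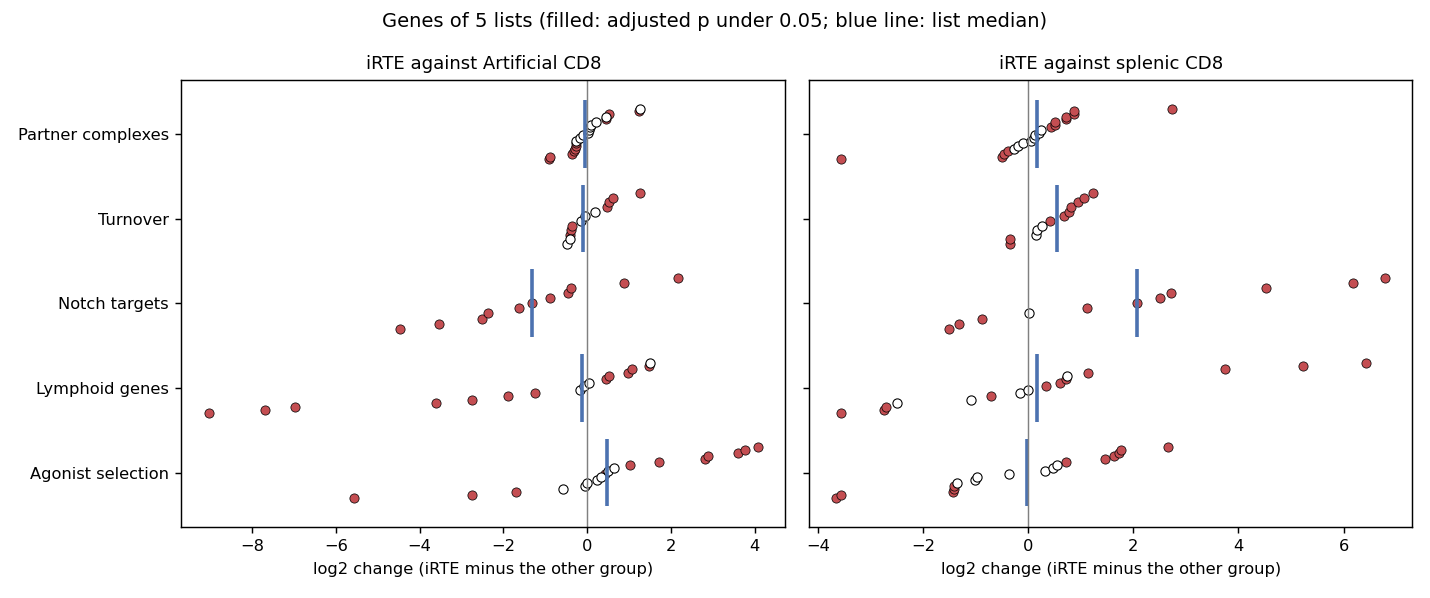
Fitted log2 change of each tested gene of the 5 lists in iRTE against Artificial CD8 (left) and against splenic CD8 (right), with filled points for an adjusted p under 0.05 in edgeR and blue lines for list medians. The Notch targets have medians of -1.33 and 2.07, and the most extreme points belong to genes at or near 0 in a group, whose fitted size depends on the prior count.

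Markers of other cell types were read beside the members, although the sort had gated out cells with the gamma-delta receptor, NK1.1 or CD11c. B-cell markers, which matter for Aiolos, summed to 3.45 to 8.30 CPM over the cultured groups, with Ms4a1 and Pax5 at 0 in all of them, and to 35.4 to 50.6 CPM in splenic CD8. The gamma-delta T-cell list, with 9 of 13 symbols in the count files, summed to 1668 to 2703 CPM in the cultured groups. In splenic CD8 it summed to 210 to 240 CPM, and Il17a was at 0 in all 4 groups. Single markers were split. Of 8 that passed the filter, 3 were called higher and 3 lower in iRTE than in splenic CD8 (29.2% and 29% of all genes). In Artificial CD8 against splenic CD8 the counts were 6 and 1 (30.3% and 30.2%). In splenic CD8 against CD4+CD8+ they were 2 and 4 (27.4% and 28.9%). The NK-cell list summed to 475 to 546 CPM in splenic CD8 and to 545 to 1319 CPM in the cultured groups, mostly Nkg7, with Klra8 at 0 in all 4 groups and Ncr1 at 0 in CD4+CD8+ and iRTE. The myeloid and dendritic list summed to 0.864 to 14.9 CPM over the 4 groups, with Siglech at 0 in the cultured groups. In iRTE the stromal list summed to 273 to 1287 CPM, mainly Vim, with Col1a1, Col3a1, Dcn, Lum, Pdgfra and Cxcl12 at 0 in all 5 libraries. It summed to 132 to 421 CPM in the other groups, and in CD4+CD8+ only Dcn and Lum were at 0 in all libraries. Of 6 stromal markers that passed the filter, 1 was called higher and 5 lower in iRTE than in CD4+CD8+ (11.8% and 12.3% of all genes). In splenic CD8, 0 were called higher and 6 lower than in CD4+CD8+ (27.4% and 28.9%). The part of such cells in the member levels was not tested.

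Other genes followed single members over the 18 libraries. Among 8961 genes with a mean of at least 10 CPM in some group, Pearson's r of log2 CPM was highest with Ikzf1 for Usp40 (0.946), Btaf1 (0.933) and Trpm7 (0.931), all highest in splenic CD8 and lowest in iRTE. With Ikzf2 it was highest for Mid1 (0.900), Mid1ip1 (0.899) and Erdr1 (0.892), of which Erdr1 had means of 66.2 CPM in iRTE and 0.338 CPM in splenic CD8. With Ikzf3 it was highest for Hivep3 (0.934), Ampd1 (0.933) and Rgcc (0.929), which had iRTE means of 4.02, 10.2 and 10.2 CPM and were lowest there. With Ikzf4 it was highest for St6galnac4 (0.944), Fam174b (0.924) and Lars2 (0.924), all with the highest mean in iRTE, and with Ikzf5 it was among the highest for Fastkd2 (0.917) and Ddx3x (0.915), both highest in Artificial CD8. With group means removed, r was 0.851 to 0.945 for the genes named with Ikzf1 and 0.528 to 0.717 for those with Ikzf2. For those with Ikzf3 it was 0.633 to 0.820, and with Ikzf4 0.852 to 0.900. With Ikzf5 it was 0.828 for Fastkd2 and 0.805 for Ddx3x. These are descriptions over libraries that share groups, depth and composition.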

How the data were processed

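Whole-number counts per gene, 1 deposited file for each of the 18 libraries, were the basis. Per the submitters' processing notes, the authors used STAR 2.4.2, build mm9 and Subread, and per the file headers the alignments had been sorted and their duplicates marked. Which annotation and strand setting were counted, and whether duplicates were, is not given in the sources used here. The authors' log2 table (edgeR, per the submitters' processing notes) covers 17765 genes and was only set against the log2 CPM computed here, from which the members differed by at most 0.0256. The number of unused sample columns was 0.

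From the counts, 13922 genes passed edgeR's filterByExpr, TMM factors were computed, and edgeR 4.0.16 (R 4.3.3) fitted 1 coefficient per group over all 18 libraries with robust quasi-likelihood and no block. Log2 CPM used a prior count of 2. Alternatives used limma 3.58.1, DESeq2 1.42.0, other scalings and filters, only the 2 groups compared, subsets of iRTE, a replicate block and leaving out each library. The fit was run on simulated counts with the same relative spread in every group. That run cannot show how the fit handles the unequal spreads of the real groups. Replicates of a group differed by more than counting noise (chi-square per degree of freedom 4.40 to 155), so none was treated as a duplicate library.

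Named are the 5 members, the 3 genes most correlated with each (mean of at least 10 CPM in some group), and from each list the called genes of smallest adjusted p in iRTE against Artificial CD8 and against splenic CD8, with some that did not pass. Chd4, Hey1, Pstk and single markers were named outside that rule after their values were seen. Some genes that the rule or lists hold are not reported here. The members and lists were chosen with earlier results of these data known. Exon lengths and overlaps are from GENCODE vM21 on GRCm38. Promoters of Ikzf2, Ikzf3 and Ikzf4 are not shown here.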

Additional observations from a re-analysis of the deposited data

How the results depend on the processing

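Of 30 member changes (5 members in 6 comparisons), 15 were called, and 11 of these kept their direction and call under each alternative run: Ikzf3 in the 3 comparisons of iRTE, Ikzf2 in the 3 comparisons of splenic CD8, Ikzf4 in iRTE and in Artificial CD8 against splenic CD8, Ikzf1 in iRTE against splenic CD8, and Ikzf5 in Artificial CD8 against iRTE and against splenic CD8. The other 4 lost the call under some alternative, and 7 of the 15 uncalled changes gained it under some. Of 540 alternative values, 506 kept direction and side of the threshold. With only the 2 groups in the fit, the members called were 2 for iRTE against Artificial CD8, 1 for iRTE against CD4+CD8+, 5 for Artificial CD8 against splenic CD8 and 2 for Artificial CD8 against CD4+CD8+, and all genes called were 3362 for Artificial CD8 against CD4+CD8+ (2041 with all groups) and 1068 for iRTE against CD4+CD8+ (3367 with all groups). For Artificial CD8 against CD4+CD8+, 1 member was called with the filter of 10 CPM, with DESeq2 and with limma-voom. With iRTE 4 and 5 alone, 2 members were called against Artificial CD8, and with no filter 1 was called for splenic CD8 against CD4+CD8+. Leaving out single libraries gave 3 to 5 members for iRTE against Artificial CD8, 0 to 1 for Artificial CD8 against CD4+CD8+, 1 to 2 for splenic CD8 against CD4+CD8+, and 1316 to 1773 genes for Artificial CD8 against CD4+CD8+ (1316 without CD4+CD8+ 1). Directions turned for Ikzf2 in iRTE against Artificial CD8 (0.13 with iRTE 4 and 5 alone) and against CD4+CD8+ (-0.17 with iRTE 1 to 3 alone), for Ikzf4 in iRTE against Artificial CD8 (-0.23 with iRTE 4 and 5 alone), and for Ikzf3 in Artificial CD8 against CD4+CD8+ (0.056 without CD4+CD8+ 1, 0.022 without Artificial CD8 2). Between iRTE 1 to 3 and iRTE 4 and 5, Ikzf1 turned to 0.046 and Ikzf5 to 0.19 without iRTE 3, and to 0.087 and 0.24 without iRTE 4, the lowest values being -0.28 and -0.27 without iRTE 5. The cause of these shifts was not tested. Scaling by total counts moved the median change of all genes by -0.12 for iRTE against Artificial CD8 and -0.18 against splenic CD8, and the share of calls that were higher from 51.8% to 39.4% and from 50.2% to 40.5%, and for iRTE against CD4+CD8+ from 48.9% to 36.9%.

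Replicate numbers are shared between groups, but 0 of 24 same-numbered pairs had deviations correlated over 0.1 (-0.0663 to 0.0587), and 3 of 18 libraries correlated best with their own number, so the numbers were not taken to pair the samples. With the replicate block, 3 members were called for iRTE against Artificial CD8, where Ikzf4 was at 0.78 (adjusted p = 0.0642), and the Ikzf3 change in Artificial CD8 against CD4+CD8+ was 0.079. All genes called under the block were 5144 for iRTE against Artificial CD8, 7958 for iRTE against splenic CD8, 8350 for Artificial CD8 against splenic CD8, 2998 for iRTE against CD4+CD8+, 1821 for Artificial CD8 against CD4+CD8+ and 7326 for splenic CD8 against CD4+CD8+.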
